A study of Mus musculus with 2 samples.

Results

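The UDP-glucuronosyltransferases (UGT), glutathione S-transferases (GST) and sulfotransferases (SULT) of primary hepatocytes were compared between *Drp1*LiKO and control mice. All genes of the array were taken whose symbols follow the naming of these enzymes, a family root (*Ugt*, *Gst* or *Sult*) with class letter and number, or *Mgst1* to *Mgst3* for microsomal GSTs, a rule that uses names and no measured value. They numbered 56 of 37074 gene names and were read by 81 probes. *Drp1*LiKO mice carry *Drp1*flox/flox and 1 copy of *Alb-Cre*, which is driven by the albumin promoter and therefore acts in albumin-expressing cells. Controls were *Drp1*flox/flox littermates without Cre, on a C57BL/6 background, so that both groups carry the floxed alleles; the labels call them wild type. Hepatocytes were freed by collagenase perfusion, plated on collagen and harvested 24 h after seeding without further treatment, and 1 array was hybridized for each genotype. The study's methods name young adult C57BL/6J males bought for its experiments, but tie neither an age nor a sex to these cultures, nor do they say how many animals contributed to each array. Without replicates no difference could be tested, and every value below compares 2 single arrays.

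Conjugation, the second phase of drug metabolism, joins a polar group to a drug, hormone or metabolite so that it can be excreted. UGTs sit in the endoplasmic reticulum and transfer glucuronic acid to compounds such as bilirubin, steroids and bile acids. GSTs, most of them cytosolic, attach glutathione to electrophiles, including products of lipid peroxidation. Cytosolic SULTs transfer sulfate to steroids, phenols and bile acids. The liver is a main site of all these reactions, and hepatocytes lose part of this program once they are plated. The genes lie in clusters of near copies, and the *Ugt1* locus is a special case in which alternative first exons are each joined to the same set of later exons.

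That arrangement decides what a probe can tell apart, and the *Ugt1* probes are therefore shown first, 5′ to 3′, as given in the files. The probe of *Ugt1a10* lies at chr1:89952780-89952839 and a probe of *Ugt1a6b* at chr1:90004249-90004308 (mm9). Capitals mark the longest run of bases that these probes share, which is 8 of 60. A further probe listed under *Ugt1a6b*, at chr1:90114900-90114959, lies near the far end of the locus, and no base is marked in it. Positions are those of the files, and no annotation of mm9 was used here, so exons were not assigned.
Ugt1a10 probe: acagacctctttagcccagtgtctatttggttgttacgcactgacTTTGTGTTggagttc
Ugt1a6b probe, upstream: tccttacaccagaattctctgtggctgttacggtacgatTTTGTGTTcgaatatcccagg
Ugt1a6b probe, downstream: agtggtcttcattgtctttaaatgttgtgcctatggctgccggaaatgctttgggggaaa

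Each signal is the processed signal of a spot on a linear scale, as the scanner software wrote it. Ratios are *Drp1*LiKO minus control on the log2 scale, each array being scaled to its own 75th percentile (313 for control, 356 for *Drp1*LiKO). Equal signals on both arrays thus give a log2 ratio slightly below 0. A gene was represented by its brightest probe and called past the threshold at a Z score of 2 over all 30275 probes compared, which corresponds to a log2 ratio of 1.30 (2.46-fold) or -1.31 (2.48-fold). Probes that the array carries in 10 copies gave the precision of a spot. The median SD of their copies on the log2 scale was 0.222 (control) and 0.286 (*Drp1*LiKO) at signals under 64, and 0.035 and 0.039 in the brightest range. This SD, carried over to a ratio, is called noise here and covers technical error within an array only. Of 56600 probes, 27256 (48.2%) in control and 29462 (52.1%) in *Drp1*LiKO cells were well above background. The brightest probe of *Dnm1l*, the gene coding for Drp1, went from 2602 to 1217 with the deletion (log2 ratio -1.28, Z score -1.95). Another probe of *Dnm1l*, close to background, went from 22.8 to 20.9 (-0.31), with a noise SD of 0.362. Albumin, the defining hepatocyte product, went from 219613 to 266703 (log2 ratio 0.10).

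Of the 56 genes, 44 were well above background on at least 1 array and were compared; 43 of these were so on both. The log2 ratio was above 0 for 33 of 44 (75%), while it was above 0 for 44.5% of all 20165 genes compared. The median log2 ratio was 0.35 for the conjugation enzymes and -0.05 for all genes. Changes of at least 2-fold upward numbered 7 (15.9%, against 5.32% of all genes), and downward 2 (4.55%, against 4.59%). Past the threshold were 3 genes upward (6.82%, against 3.5% of all genes) and 2 downward (4.55%, against 2.81%). The genes that rose past it were *Ugt1a10*, *Gsto2* and *Sult1e1*, and those that fell were *Sult2a4* and *Sult4a1*. Most of the enzymes thus lay above the median of all genes by an amount below the threshold. Because RNA of whole cultures was measured, fewer cells of a type and less RNA per cell cannot be told apart.

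**Figure D1:**
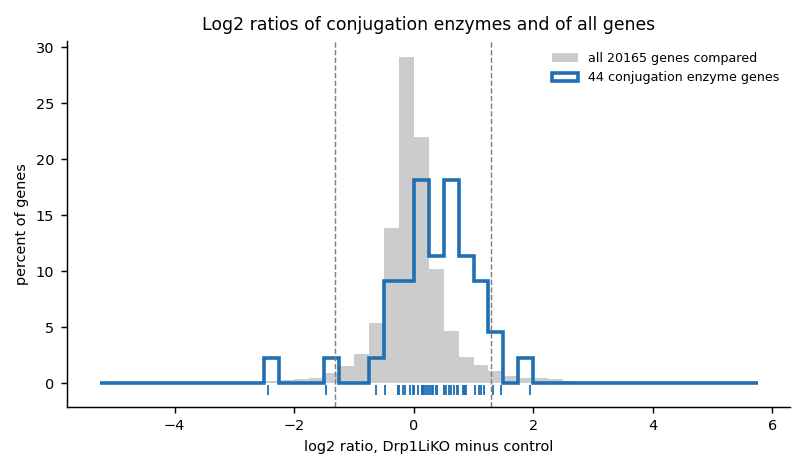
Percent of genes (vertical axis) in bins of 0.25 of the log2 ratio, *Drp1*LiKO minus control, for all 20165 genes compared (grey) and for the 44 conjugation enzyme genes (blue outline, with a tick for each gene). Dashed lines mark a Z score of 2 in either direction; the blue outline is displaced to the right of the grey bars, with a median of 0.35 against -0.05.

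Other cell types were measured beside these enzymes. All 14 detected of 15 markers of Kupffer cells and macrophages were higher after the deletion, 11 of them past the threshold, and their median log2 ratio was 2.28. Their signals summed to 11437 (control) and 30145 (*Drp1*LiKO), of which *Cd14* alone, with a ratio of 0.21, made up 6407 and 8419. All 9 endothelial markers were higher, 5 past the threshold, with a median of 1.66. They summed to 4262 and 8960, of which *Egfl7*, with a ratio of 0.7, made up 3773 and 6941. Of 9 detected stellate cell markers 8 were higher and 5 past the threshold, with a median of 1.86. They summed to 21932 and 30171, of which *Acta2*, with a ratio of 0.02, made up 21437 and 24640. The marker not counted as higher, *Des*, went from 6.47, not well above background, to 18.5, which was. Its ratio of -0.16 arose from raising the control signal to the lowest one well above background. Of 5 detected cholangiocyte markers 2 were higher and 3 lower, none past the threshold, with a median of -0.27. They summed to 29674 and 25163, of which *Spp1*, with a ratio of -0.46, made up 24719 and 20346. The macrophage marker *Timd4*, the stellate cell marker *Lrat* and the cholangiocyte markers *Epcam* and *Cftr* were not well above background on either array. The defining Kupffer cell markers *Clec4f* and *Vsig4* were well above background only in *Drp1*LiKO cells. The 16 detected hepatocyte markers summed to 568261 and 680610. Of this *Alb* made up 219613 and 266703, and *Apoa2* 172936 and 166881. The ratio was above 0 for 11 of these markers and past the threshold for 1, *Ahsg* (1.83), and their median was 0.20. All sums are of signals before scaling, whereas ratios are scaled. These counts and medians include bounds, ratios in which a dim signal was raised to the lowest one well above background. Bounds numbered 3 for macrophage, 2 for endothelial, 5 for stellate cell, 1 for cholangiocyte and 1 for hepatocyte markers. The part of these cell types in the values of the conjugation enzymes was not tested.

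The UGT family had 13 of 14 genes detected, of which 11 had a log2 ratio above 0, with a median of 0.38. *Ugt1a10*, one of the first-exon forms of the *Ugt1* locus, rose from a signal of 56.9 in control to 250 in *Drp1*LiKO cells. This 3.87-fold difference (log2 ratio 1.95, Z score 3.0) was the largest among the enzymes that rose, and exceeded the noise of a ratio at that signal, an SD of 0.24. *Ugt1a6b*, which belongs to the phenol-conjugating forms, went from 7804 to 16154 at its brightest probe, at chr1:90115493-90115552 (log2 ratio 0.87). Its downstream probe shown above went from 1703 to 3253 (0.75), and its upstream probe from 106 to 154 (0.36). The downstream probes thus had ratios closer to each other than to the upstream one, which had the lower signals. Exons were not assigned, so whether the downstream probes read *Ugt1a6b* alone or other forms of the locus as well was not tested. The only probe of *Ugt1a6a*, at chr1:90116514-90116573, downstream of those of *Ugt1a6b*, was not well above background on either array. Which forms of the locus this probe reads was not tested either.

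The *Ugt2* genes are neighbors on chromosome 5, where the probes of 9 genes span chr5:87318849-87889527, and *Ugt2b* enzymes conjugate steroids, bile acids and drugs. All 7 *Ugt2b* genes gave a signal, 6 of them with a ratio above 0, and their median was 0.51. The highest was *Ugt2b5*, from 751 to 1740 (1.03), followed by *Ugt2b37*, from 328 to 662 (0.83), and *Ugt2b36*, from 1063 to 2011 (0.74). The probes of *Ugt2b37* and *Ugt2b5* have 18 bases in a row in common, and cross-binding between them was not tested. *Ugt2b38* went from 2321 to 3762 (0.51) and *Ugt2b1* from 215 to 295 (0.27). The brightest, *Ugt2b34*, went from 6367 to 7240, which after scaling is a log2 ratio of 0.00. *Ugt2b35* was the only *Ugt2b* gene with a lower scaled signal, from 270 to 198 (-0.63). Neighbors within the cluster therefore ranged from -0.63 to 1.03, and none passed the threshold.

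The other UGT genes had log2 ratios between -0.26 and 0.38. *Ugt2a3* went from 882 to 1306 (0.38), and *Ugt2a1*, known from the olfactory epithelium, from 343 to 325 (-0.26). *Ugt3a1* and *Ugt3a2*, whose enzymes use sugar donors other than glucuronic acid, had log2 ratios of 0.32 and 0.30. *Ugt3a1* went from 920 to 1303 and *Ugt3a2* from 1687 to 2365.

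**Figure D2:**
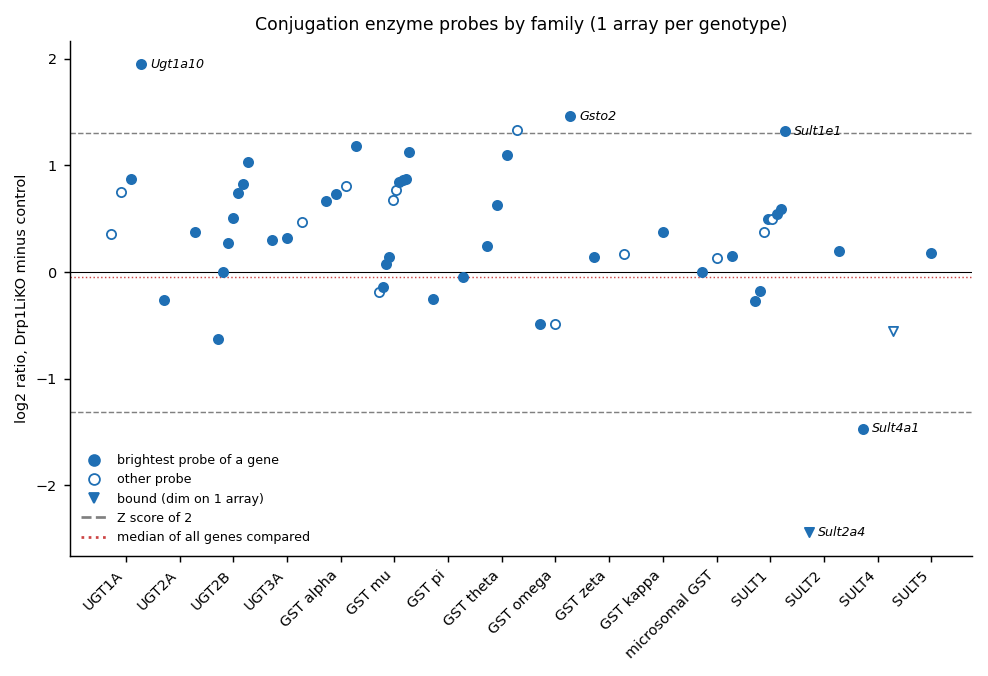
Log2 ratio (*Drp1*LiKO minus control) of each of the 58 probes compared, by enzyme family, with 1 array per genotype. Filled symbols are the brightest probe of a gene, open symbols other probes, triangles bounds in which 1 array was not well above background; dashed lines mark a Z score of 2 and the dotted line the median of all genes. *Ugt1a10*, *Gsto2* and *Sult1e1* lie above the upper line and *Sult4a1* and *Sult2a4* below the lower one, while the alpha and mu classes of GST gather between 0.08 and 1.18 apart from *Gstm5*.

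Among the GST genes 21 of 23 were detected and 16 had a log2 ratio above 0, with a median of 0.38, or 0.65 for the cytosolic classes alone. The alpha and mu classes, the main GSTs of mouse hepatocytes together with pi, held 10 genes, 9 of them above 0, with a median of 0.79. Without these classes the other 34 enzymes had a median of 0.29, 24 above 0. None of the alpha and mu genes passed the threshold. When the Z score was instead taken within bins of similar signal, *Gsta2*, *Gsta4*, *Gstm1*, *Gstm3* and *Gstm4* passed it, while *Gsto2* and *Sult1e1* no longer did; in that setting 3.17% of all genes passed upward.

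All 3 alpha class genes were higher. *Gsta4*, whose enzyme prefers 4-hydroxynonenal, a product of lipid peroxidation, went from 510 to 1311 (log2 ratio 1.18, Z score 1.82). *Gsta3* went from 11908 to 22420 (0.73, and 0.81 at another probe), and *Gsta2*, the brightest, from 23117 to 41650 (0.67). At these signals the noise of a ratio was an SD of 0.053 for *Gsta2* and *Gsta3* and 0.134 for *Gsta4*, so each difference exceeded the noise between spots.

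The mu class genes lie side by side on chromosome 3 (chr3:107701101-107846847). The brightest, *Gstm3*, went from 30946 to 63972 (log2 ratio 0.87), *Gstm4* from 990 to 2043 (0.86) and *Gstm1* from 19330 to 39331 (0.84). The files place this probe of *Gstm1* on chromosome 5, outside the cluster, and its probe within the cluster went from 6303 to 12222 (0.77). These 3 genes were thus about equally displaced over a wide range of signals. *Gstm7* had the highest ratio of the class, from 21.5 to 53.3 (1.13), but at a low signal where the noise of a ratio was an SD of 0.362. With another background correction (normexp) its ratio was 0.34, below those of *Gstm3*, *Gstm4* and *Gstm1*. *Gstm2* went from 2922 to 3653 (0.14) and *Gstm5* from 5442 to 5596 (-0.14). For *Gstm6* the probes differed most among the enzymes well above background throughout: the brighter went from 1757 to 2103 (0.08), the other from 1017 to 1850 (0.68). The cluster did not move as a block, since *Gstm2* and *Gstm5* stood beside genes with ratios above 0.8.

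The theta class, which acts on small halogenated compounds, had 3 of 4 genes detected and all were higher. *Gstt2* went from 552 to 1340 (log2 ratio 1.1) at its brightest probe and from 78.8 to 225 (1.33) at the other. The brightest gene, *Gstt1*, went from 6625 to 11646 (0.63), and *Gstt3* from 901 to 1205 (0.24). *Gstt4* was not well above background on either array.

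The omega class, with dehydroascorbate reductase activity, was divided. *Gsto2* rose from 21.2 to 66.2 (log2 ratio 1.46, Z score 2.25), a 2.75-fold difference with a noise SD of 0.24. Its control signal lay just above 18.2, the lowest signal well above background on that array, and a second probe of the gene was not well above background on either array. *Gsto1*, next to it on chromosome 19, went from 24736 to 20057 at one probe and from 11143 to 8987 at the other, with a log2 ratio of -0.49 at both. *Gsto1* had the lowest ratio of all GST genes.

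The pi class was close to the median of all genes. *Gstp2* had the highest signals of all GST probes, 151701 in control and 144495 in *Drp1*LiKO cells (log2 ratio -0.25), and *Gstp1* went from 36783 to 40196 (-0.05). Because these paralogs are nearly identical in sequence, their probes may not read them apart. Among the remaining GSTs, the mitochondrial and peroxisomal *Gstk1* went from 1861 to 2741 (0.38), and *Gstz1*, which acts in tyrosine breakdown, from 1990 to 2491 (0.14). The membrane-bound *Mgst1* went from 66848 to 84072 (0.15) and *Mgst3* from 1111 to 1257 (-0.00), while *Mgst2* was not well above background.

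**Figure D3:**
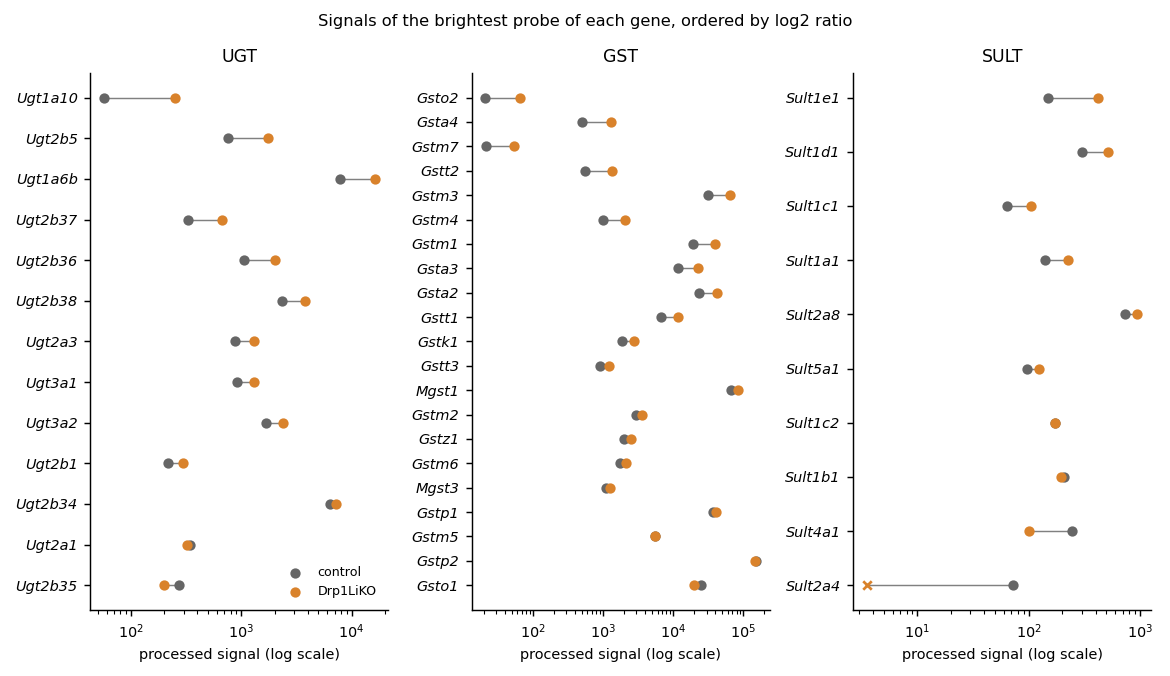
Processed signal of the brightest probe of each detected gene in control (grey) and *Drp1*LiKO cells (orange), on a log axis, in panels for UGT, GST and SULT genes ordered by log2 ratio from bottom to top; the cross marks a signal not well above background (*Sult2a4*, 3.52). Signals are shown before scaling, and probes differ in binding, so levels are compared within a row only. *Ugt1a10* goes from 56.9 to 250 and *Gstm3* from 30946 to 63972.

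The SULT genes had the widest range of log2 ratios, from -2.44 (a bound) to 1.32. Control signals of those detected were 64.3 to 727 at the brightest probes, below those of most GST genes, and noise is larger at lower signals. Of 19 genes 10 were detected, 6 with a log2 ratio above 0 and 4 below, with a median of 0.19. They held 3 of the 5 enzymes past the threshold. Of the 10 detected, 1 passed upward (beside 3.5% of all genes) and 2 downward (beside 2.81%), *Sult2a4* as a bound. The 9 genes that were not detected were *Sult2a1*, *Sult2a2*, *Sult2a3*, *Sult2a5*, *Sult2a6*, *Sult2a7*, *Sult2b1*, *Sult3a1* and *Sult6b1*.

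All 6 *Sult1* genes gave a signal, and their median was 0.52. *Sult1e1*, the estrogen sulfotransferase, rose from 150 to 424, a 2.49-fold difference (log2 ratio 1.32, Z score 2.03), which lay just past the threshold, with a noise SD of 0.143. Its neighbors on chromosome 5 (chr5:87942561-88005246), beside the *Ugt2* cluster, had lower ratios. *Sult1d1*, a dopamine-conjugating enzyme, went from 301 to 514 (0.59) and *Sult1b1*, which acts on thyroid hormone, from 209 to 197 (-0.27). The phenol sulfotransferase *Sult1a1* went from 139 to 224 (0.50), *Sult1c1* from 64.3 to 106 (0.54) and *Sult1c2* from 172 to 172 (-0.18).

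The *Sult2a* genes code for hydroxysteroid and bile acid sulfotransferases, and 8 of them lie in a cluster on chromosome 7 (chr7:14247879-15050573), of which 2 were detected. *Sult2a4* (chr7:14495026-14495085) had a signal of 71.6 in control cells and was not well above background in *Drp1*LiKO cells (3.52). Against the lowest *Drp1*LiKO signal well above background (15.0), the fall was at least 5.42-fold (log2 ratio -2.44). This bound holds for the main processing only. With the deposited normalized intensities the log2 ratio of *Sult2a4* was -1.74, and with normexp it was -0.96. Its probe has 36 bases in a row in common with that of *Sult2a1*, which was not well above background on either array. *Sult2a8* went from 727 to 951 (log2 ratio 0.20). The 6 other genes of the cluster had signals of at most 5.99 in control and 5.50 in *Drp1*LiKO cells.

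*Sult4a1*, known as a brain sulfotransferase without a settled substrate, fell from 245 to 101 (log2 ratio -1.47, Z score -2.23, 2.76-fold). Another probe of the gene, at 19.4 in control and not well above background in *Drp1*LiKO cells, gave a bound of -0.55. *Sult5a1* went from 96.9 to 124 (0.18). Of the 13 enzymes with more than 1 detected probe, 0 had probes of opposite sign. Leaving out *Sult4a1*, whose second value is a bound, the widest gap between probes was that of *Gstm6*, 0.60 on the log2 scale.

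Promoter windows of RefSeq (GRCm38.p6), from 250 bases before to 50 after a start site, were found for 48 of the 56 genes. They were searched on both strands for TGACNNNGC, the core of the antioxidant response element bound by NRF2, and for GCGTG, the core bound by the aryl hydrocarbon receptor (AHR). The antioxidant core stood in 4 of 48 enzymes (8.33%, against 14.0% of 27025 genes), namely *Gsta3*, *Gstm5*, *Gstm7* and *Mgst1*, with log2 ratios from -0.14 to 1.13. The AHR core stood in 8 (16.7%, against 35.2%). In the window of *Gstm5* a match to each of these cores overlapped. A match is a description of these letters in this window only.

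The lists of cosubstrate genes also hold enzymes that undo a conjugation. None of the 4 genes of UDP-glucuronate supply and glucuronide cleavage passed the threshold, and 3 had ratios below 0, with a median of -0.27, from *Gusb*, the lysosomal glucuronidase (-0.51), to *Ugp2*, which makes UDP-glucose (0.15). None of the 8 genes of sulfate donor supply, the sulfatase *Sts* included, passed it either, with 7 below 0 and a median of -0.30. The lowest was *Slc35b2*, a transporter of the sulfate donor (-0.54), and the highest *Bpnt1*, which removes its product (0.16). Of 13 genes of glutathione synthesis and turnover 10 were detected, 8 of them above 0, with a median of 0.32 and none past the threshold. They reached from *Cbs*, the first enzyme of transsulfuration (10403 to 5837, -1.02), to *Anpep*, an aminopeptidase that trims glutathione conjugates (1041 to 2471, 1.06).

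Among 10 detected genes of other conjugation and detoxification enzymes 4 were above 0, with a median of -0.11. *Inmt*, an N-methyltransferase, rose from 161 to 484 (log2 ratio 1.40, Z score 2.16) and *Nnmt*, the nicotinamide N-methyltransferase, was the lowest, from 53277 to 31957 (-0.92). The 6 exporters of conjugates and drugs had a median of 0.39 and none past the threshold, from *Abcg2* (-0.80) to the drug exporter *Abcb1a* (0.97).

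Of 13 regulators 12 were detected, 7 above 0, with a median of 0.06. *Nr1i3*, coding for the constitutive androstane receptor (CAR) that drives UGT, GST and SULT genes in response to drugs, rose from 19.9 to 104 (log2 ratio 2.20, Z score 3.39, 4.60-fold), with a noise SD of 0.24 and a control signal close to background. The bile acid receptor *Nr1h4* was the lowest, from 941 to 524 (-1.03) at its brightest probe. Another, dimmer probe of *Nr1h4* went from 55.2 to 57.5 (-0.12), with a noise SD of 0.362. *Nfe2l2*, coding for NRF2, went from 7439 to 6313 (-0.42), and *Nr1i2*, coding for the drug receptor PXR, was not well above background. Of 9 NRF2 targets other than the conjugation enzymes 8 were above 0, with a median of 0.46, from *G6pdx* (-0.07) to *Srxn1* (0.94), and none passed the threshold. The 4 detected AHR targets were above 0 with a median of 0.48, the lowest being *Nqo1*, a quinone reductase that is also in the NRF2 list (0.34). *Cyp1a1* rose from a signal not well above background (11.0) to 53.0, at least 2.56-fold. No gene of these lists passed the threshold downward.

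**Figure D4:**
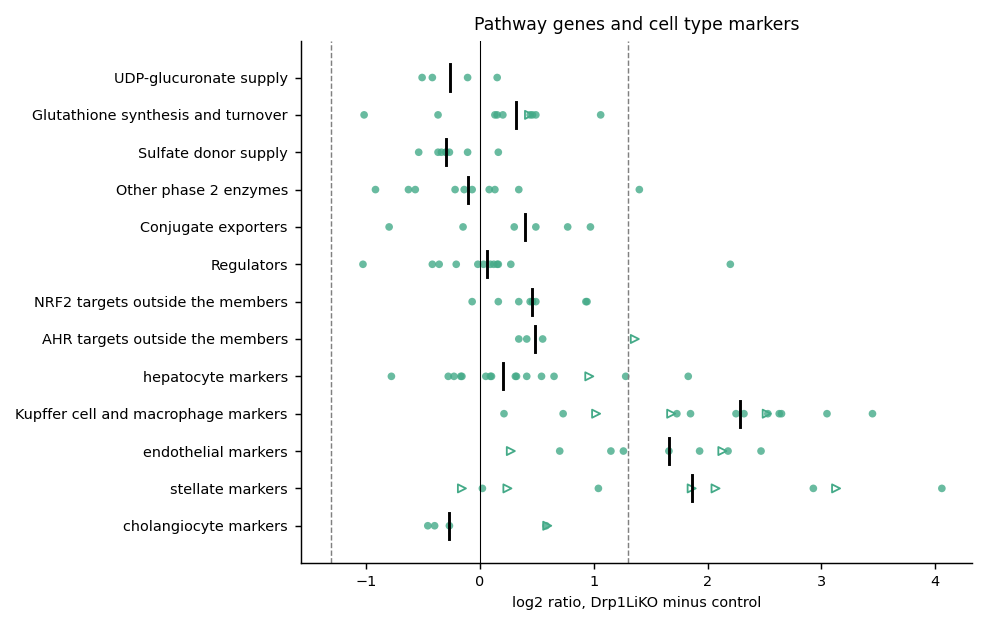
Log2 ratios (*Drp1*LiKO minus control) of the detected genes of each pathway list and cell type marker list, 1 symbol per gene; open triangles are bounds, black bars list medians and dashed lines a Z score of 2. Medians of the pathway lists lie between -0.30 and 0.48, and those of macrophage, endothelial and stellate cell markers between 1.66 and 2.28. The median of hepatocyte markers lies at 0.20 and that of cholangiocyte markers at -0.27.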

How the data were processed

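RNA of control and *Drp1*LiKO primary hepatocytes was labeled with Cy3 and hybridized to Agilent 60-mer mouse arrays, 1 per genotype. The authors deposited scanner output with raw and background-corrected intensities of each spot, extracted with Feature Extraction (version 9.5.1.1 in the submitters' notes, 10.7.1.1 in the file headers, mm9), and a table of normalized intensities whose method is not given in the sources used here. From the processed intensities, control spots and spots marked as outliers were left out, spots of a probe were averaged as log2 values, and arrays were scaled to their 75th percentiles. Probes had to be well above background on either array, and a dimmer signal was raised to the lowest that was (18.2 in control, 15.0 in *Drp1*LiKO), which makes its ratio a bound that was not ranked. The Z score used the mean (-0.008) and SD (0.65) of 30275 log2 ratios. No spot was saturated, and 0 spots of the conjugation enzymes were marked as outliers. With 1 array per genotype, the number of arrays sets the limit of precision.

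The naming rule for the enzymes uses no measured value, but the rule, the gene lists and the markers were all chosen with earlier results of these data known. Named were all enzymes past the threshold, the brightest, highest and lowest of each family, *Dnm1l*, and of each pathway list the genes past the threshold, the highest and the lowest. Other genes (among them the remaining enzymes, *Nfe2l2* and *Nr1i2*, and marker genes) were named after their values were seen. For 1 regulator no value is reported here. All 56 symbols stand in RefSeq (GRCm38.p6). The alternatives were quantile normalization, spike-in scaling, normexp with an offset of 50, the deposited normalized intensities, other filters and floors, outliers kept, other Z scores, the median of a gene's probes, counts of probes and a minimum of 1.5-fold. The steps were tested on simulated data. Calculations used Python 3.11.15 (numpy 2.4.6, pandas 2.3.3, matplotlib 3.10.9) and R 4.3.3 (limma 3.58.1).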

Additional observations from a re-analysis of the deposited data

How the results depend on the processing

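No paired analysis was possible because there was 1 array per genotype. Of 13 alternatives, 9 give a log2 ratio per gene, and the filters and kept outliers among them hardly touch it. In these, 40 of 44 enzymes had ratios of one sign. *Gstm5*, *Mgst3* and *Sult5a1*, which lie near 0, changed sign. *Ugt2b34* was left out of the 40 because its ratio was 0.00 in some settings and at most 0.06 in others, but it was never negative. The number past the threshold depended on how it was set. Upward, 3 enzymes (beside 3.5% of all genes) became 9 with normexp (3.63%), 6 with probes well above background on both arrays (3.49%), 11 with no filter (3.66%), 1 with no floor (4.07%), 14 with a Z score from the median and median absolute deviation (8.54%), and 9 when Z was taken within bins of similar signal (3.17%). *Gsta4* and *Gstt2* passed in each of these except without the floor. *Gstm1*, *Gstm3*, *Gstm4*, *Ugt1a6b* and *Ugt2b5* passed with normexp, with no filter and with either of the other Z scores. *Ugt1a6b* stands here for its brightest probe, a downstream one that may also read other forms of the locus. Downward, 2 enzymes (beside 2.81% of all genes) became 1 with the both-array filter (2.34%), which leaves out *Sult2a4*. They also became 1 with no floor (2.53%) and 1 with the median of probes (2.75%), which leave out *Sult4a1*. *Ugt1a10* passed in each alternative that counts genes, with log2 ratios from 1.18 to 1.99. *Gsto2* ranged from 0.47 to 1.5 and did not pass with normexp, with no floor or among probes of similar signal, and *Sult1e1* (1.06 to 1.36) not with the deposited values, with no floor or among probes of similar signal. The ratio of *Sult2a4* ranged from -4.53 to -0.96 and that of *Sult4a1* from -1.71 to -1.01. The median of the enzymes was 0.33 to 0.39 except with no filter, where it was 0.16 beside -0.47 for all genes. Signals near background limit the precision for *Gsto2*, *Gstm7*, *Ugt1a10* and *Sult2a4*.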
